A study of Mus musculus with 9 samples.

Results

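The genes of the major histocompatibility complex (MHC) and of peptide presentation were followed in LSK cells, the fraction of mouse bone marrow that lacks mature lineage markers, carries c-Kit and Sca-1, and holds the blood stem cells and earliest progenitors. Members were all genes whose symbol in the array's probe annotation starts with H2-, together with 10 genes of the presentation pathway, each read on a probeset that carries exactly 1 symbol. This gave 45 genes of the 30142 measured. Of these, 37 are H2- genes and 8 are pathway genes, and none had more than 1 such probeset. The probesets of Cd74 (the invariant chain) and Nlrc5 (the class I transactivator) carry a second symbol and were not used here, and neither were 9 probesets that name an H2- gene beside another gene.

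The arrays held LSK RNA of 4 knockout (KO) mice, Abi1(-/-);Tg(Mx1-cre(+)), and 5 wild-type (WT) mice, Abi1(fl/fl);Tg(Mx1-cre(-)), aged 12 to 14 weeks, 1 mouse per array. Mice of both groups had been given 3 injections of poly(I:C), an inducer of interferon that switches on the Mx1 promoter, at 8 to 9 weeks of age. There was no group without poly(I:C), so these levels are those of mice that had all met an interferon stimulus some weeks earlier. The Mx1 promoter answers interferon in many cell types, Cre was present in the KO mice only, and the labels name no strain or litter. Abi1, which encodes a subunit of the WAVE complex of actin branching, fell by 5.73 on the log2 scale in KO (limma adjusted p = 7.42e-08), and no WT array was as low as any KO array.

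Class I molecules sit on nearly all cells and display peptides from inside the cell. Proteasomes cut the peptides, the TAP transporter carries them into the endoplasmic reticulum, tapasin helps to load them, and the heavy chain pairs with beta-2-microglobulin. Class II molecules, alpha-beta dimers best known from dendritic cells, B cells and macrophages, display peptides from the endosome. The DM dimer loads those peptides and the DO dimer restrains DM. The transactivator CIITA governs class II genes, acting on factors bound to an X box (the RFX complex) and to a CCAAT box (NF-Y) in their promoters. Class II has also been described on blood stem and progenitor cells.

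The promoters are shown first. A pair of boxes stood in those of 6 class II genes, and its part in the signals of these genes was not tested. RefSeq's promoter table (build GRCm38.p6) held 32 of the 45 members, H2-Ab1 not among them, and 250 bases before each start were searched. The pair searched was GNAAC, the core of the X box, followed on the same strand by ATTGG, the CCAAT box read on its other strand, with 28 to 38 bases between their first bases, and both strands were searched. That spacing was chosen after the H2-Aa and H2-Eb1 promoters had been read, so the matches in these genes were set in advance. The pair was found in 6 members, all of them class II genes: H2-Aa, H2-Eb1, H2-Eb2, H2-DMb1, H2-Oa and H2-Ob. These are 3 of the 3 class II chains in the table and 3 of the 5 class II loading genes. H2-DMb2 was not counted, and holds TTAAC where H2-DMb1 holds GTAAC. Boxes spelled otherwise were thus missed, and a count of 0 does not show their absence. The pair was found in 0 of 17 class I heavy chain genes and 0 of 6 class I peptide supply genes, and in 1.51% of 32817 promoters of the table. The bases before the start of 4 of these genes are printed 5′ to 3′ on the gene's strand, with the X core and the CCAAT box in capitals, at chr17:34287824-34287973 (minus strand), chr17:34305717-34305866, chr17:34153041-34153190 and chr17:34238755-34238904 (plus strand).
H2-Aa: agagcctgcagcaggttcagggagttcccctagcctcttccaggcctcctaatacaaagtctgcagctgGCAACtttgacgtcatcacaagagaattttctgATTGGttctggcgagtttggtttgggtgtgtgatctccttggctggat
H2-Eb1: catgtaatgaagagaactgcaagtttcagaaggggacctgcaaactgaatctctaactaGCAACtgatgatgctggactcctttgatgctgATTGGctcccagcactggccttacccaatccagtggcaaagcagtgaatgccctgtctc
H2-DMb1: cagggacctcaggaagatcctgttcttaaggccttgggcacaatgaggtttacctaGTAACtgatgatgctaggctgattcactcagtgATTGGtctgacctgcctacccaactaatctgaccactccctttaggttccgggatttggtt
H2-Ob: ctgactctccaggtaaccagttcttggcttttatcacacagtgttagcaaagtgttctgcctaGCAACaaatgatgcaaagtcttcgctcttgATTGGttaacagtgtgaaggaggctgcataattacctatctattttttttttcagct

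Counted from the start of H2-Aa, H2-Eb1, H2-DMb1 and H2-Ob, the X core began at base -81, -91, -94 and -87, and the first bases of both boxes lay 33, 32, 33 and 30 bases apart. The CCAAT box alone (ATTGG on either strand) was common to both classes, in 28 of 32 members and 33.8% of all promoters. A match is a description of these letters and not a measured binding site.

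Other motifs were searched too, and the matches are shown here for the 2 brightest heavy chain genes and for the light chain. GGGGATTCC, 1 spelling of the core of an NF-kappaB site, was found in H2-K1 and H2-D1 alone among the 32 members, and in 0.213% of all promoters. Other spellings were not searched, so the other members are not shown to lack such a site. H2-Q4, for example, holds GGGGATTTCC. GAAANNGAA, a short form of the interferon response element, was found in B2m alone among the 32, and in 7.12% of all promoters. Only this form of the element was searched, so the other members are not shown to lack one. H2-K1, H2-D1, H2-Q4, H2-Q10 and H2-M3, for example, hold TTTCACTTC, which the searched form does not match on either strand. TTCNNNGAA, the form of a STAT site, was found in 4 members of both classes (Psmb8, H2-M3, H2-M11 and the class II loading gene H2-DMb2), and in 7.01% of all promoters. The motifs searched were read on both strands. The matches stand in capitals in the sequences at chr17:34000348-34000497 (minus strand), chr17:35262903-35263093 and chr2:122147537-122147686 (plus strand).
H2-K1: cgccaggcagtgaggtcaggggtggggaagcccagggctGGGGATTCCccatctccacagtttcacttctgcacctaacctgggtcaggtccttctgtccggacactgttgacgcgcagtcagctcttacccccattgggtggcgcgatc
H2-D1: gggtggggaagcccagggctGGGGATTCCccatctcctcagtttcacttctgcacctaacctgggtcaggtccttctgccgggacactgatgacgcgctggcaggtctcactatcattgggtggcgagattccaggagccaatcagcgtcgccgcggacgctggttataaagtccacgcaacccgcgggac
B2m: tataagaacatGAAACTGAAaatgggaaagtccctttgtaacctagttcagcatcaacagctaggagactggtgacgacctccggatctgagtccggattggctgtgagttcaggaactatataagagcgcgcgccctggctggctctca

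Genes of both classes were above the background set by receptor genes in LSK cells, and B2m, H2-K1 and H2-D1 gave the brightest signals of the members. Values are log2 signals, on which a step of 1 is taken as a doubling. Background was set in each array at the percentile 95 of the olfactory and vomeronasal receptor genes, which lay between 5.29 and 5.64. By that measure 30 of the 45 members had a mean above background, and 29 were above it in all 9 arrays. Of the 23 class I heavy chain genes 10 were above background, and of the 5 class II chain genes 4 were. All 7 class I peptide supply genes, all 5 class II loading genes and Ciita were above it. The counts depend on that choice. The percentile 95 of control probesets marked neg lay at 10.70 to 12.27, far over the array medians of 5.51 to 5.77. Against it 3 of 23 heavy chains, 4 of 7 supply genes, 1 of 5 class II chains and 1 of 5 loading genes were above. Probesets differ in how strongly they bind their targets, so the signals of different genes share no common scale and no fold between classes is given. The classes are set side by side by their standing against background.

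**Figure D1:**
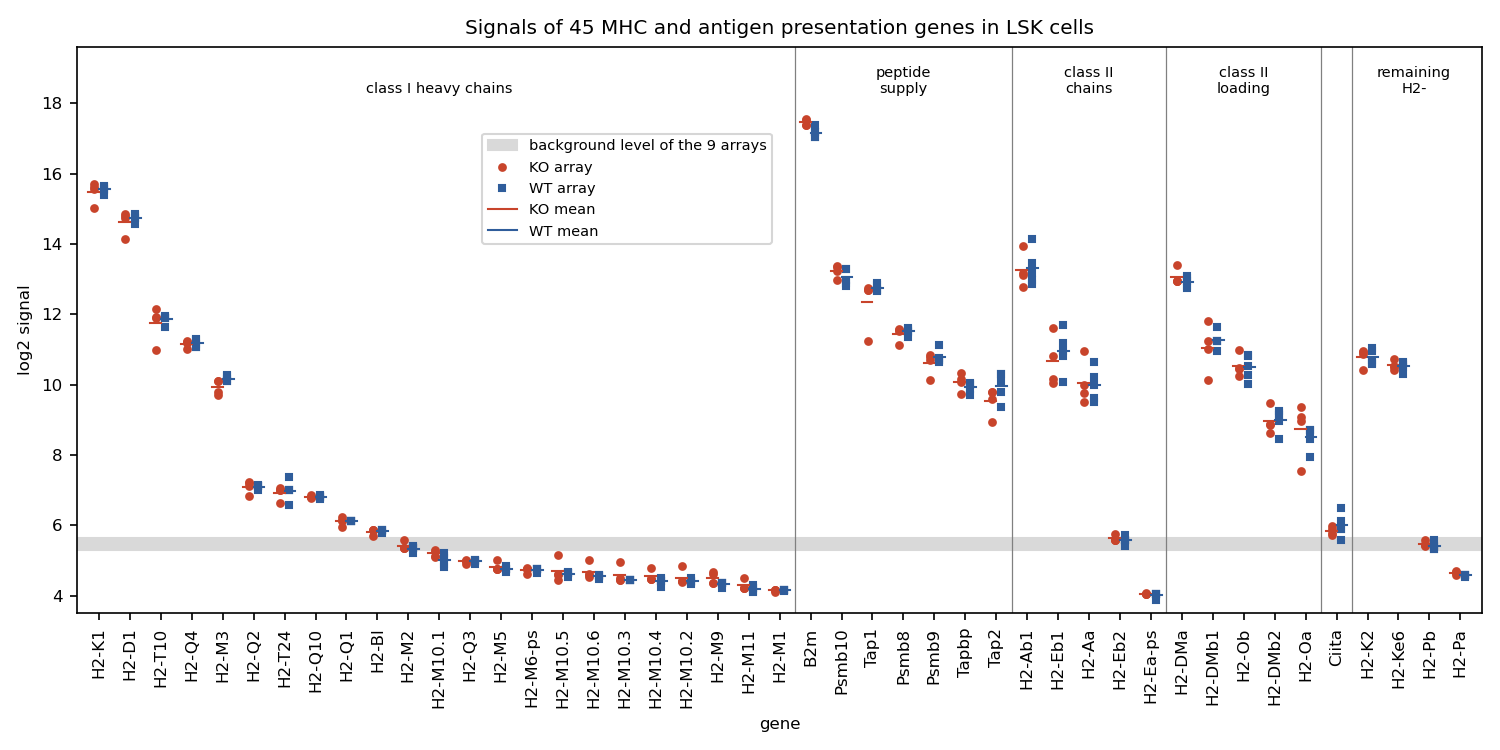
Log2 signal (vertical axis) of each of the 45 genes (horizontal axis, by group and falling mean) in 4 KO arrays (circles) and 5 WT arrays (squares), with group means as short lines and the background level of the 9 arrays as a grey band. B2m, H2-K1, H2-D1 and H2-Ab1 lie far above the band, while 13 of the 23 class I heavy chain genes lie within or under it.

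H2-K1 and H2-D1 encode the classical class I heavy chains. H2-K1 (chr17:33996012-34000619 in GRCm38.p6) read 15.03, 15.55, 15.70 and 15.62 in the KO mice (replicates 1 to 4) and 15.61, 15.55, 15.39, 15.53 and 15.66 in the WT mice (replicates 1 to 5). H2-D1 was at 14.13, 14.74, 14.84 and 14.79 in KO and at 14.86, 14.74, 14.56, 14.74 and 14.82 in WT. For both genes KO replicate 1 was the lowest array, and the other 3 KO arrays fell within or just above the WT range. The KO minus WT value of H2-K1 was -0.073 (95% interval, as for every interval here, -0.38 to 0.23), and that of H2-D1 was -0.12 (-0.45 to 0.22). Neither passed the test (limma adjusted p = 0.863 and 0.809), and without KO replicate 1 the differences were 0.075 and 0.046. Class I heavy chain genes are close copies of one another, so probes of 1 gene may also read its relatives, and the single values are uncertain to that extent.

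The non-classical heavy chains ranged from bright to undetected. H2-T10 and H2-Q4 had means of 11.80 and 11.16 over the 9 arrays, H2-M3, which presents formylated peptides, 10.06, and H2-Q2, H2-T24, H2-Q10, H2-Q1 and H2-Bl 7.10, 6.96, 6.81, 6.12 and 5.82. RefSeq lists H2-T10 and H2-Bl as transcribed pseudogenes. The other 13 heavy chain genes had means from 4.16 to 5.36, and 12 of them were above background in 0 arrays. They include all 6 genes of the H2-M10 family, which is known from vomeronasal neurons. The exception among the dim genes was H2-M2, above background in 4 arrays.

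H2-M3 was the 1 heavy chain gene with an unadjusted p under 0.05. It was at 9.71, 10.09, 10.09 and 9.80 in KO and at 10.09, 10.16, 10.26, 10.24 and 10.09 in WT. KO replicates 1 and 4 were lower than every WT array, and the other 2 KO arrays equalled the lowest WT arrays. The difference was -0.25 (SE 0.091), with limma adjusted p = 0.786 and an exact two-sided permutation p of 0.0476. Of the dim genes, H2-M9 was at 4.60, 4.35, 4.35 and 4.66 in KO and at 4.35, 4.35, 4.35, 4.36 and 4.21 in WT. H2-M10.1 was at 5.27, 5.10, 5.30 and 5.12 in KO and at 5.20, 4.80, 5.12, 5.07 and 4.91 in WT. Both stayed under background in every array, and neither difference passed the test (0.17 and 0.18, both with limma adjusted p = 0.786).

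B2m, the light chain that every class I molecule needs, was the brightest member and had the smallest p of the 45. Its signal was 17.55, 17.52, 17.39 and 17.38 in KO and 17.17, 17.03, 17.38, 17.03 and 17.19 in WT. The KO arrays lay at or above all WT arrays, with WT replicate 3 equal to the lowest of them. The KO mean was 17.46 ± 0.088 (SD, n = 4) and the WT mean 17.16 ± 0.14 (SD, n = 5), a difference of 0.30 (SE 0.080, interval from 0.12 to 0.48), or 1.23-fold. It did not pass the test over all genes (limma adjusted p = 0.786, unadjusted p = 0.00511). The exact two-sided permutation p was 0.0238, where 0.00794 is the smallest that 4 against 5 arrays allow. B2m was among the genes set by name, but it is singled out here for its p, the smallest among 45 members. Leaving out any single array gave differences from 0.27 to 0.36.

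Peptide supply genes split in direction, and 4 of the 7 had lower KO means, each nearer to 0 or above it without KO replicate 1. Tap1 encodes 1 chain of the peptide transporter. Its signal was 11.23, 12.70, 12.75 and 12.68 in KO and 12.70, 12.88, 12.70, 12.67 and 12.83 in WT, so that KO replicate 1 alone was low. Its difference of -0.42 became -0.046 without KO replicate 1. Tap2, the gene of its partner chain, was at 8.93, 9.79, 9.79 and 9.59 in KO and at 9.79, 10.29, 9.36, 10.06 and 10.30 in WT. The groups overlapped, and the difference of -0.44 was -0.24 without KO replicate 1. Neither transporter gene passed the test (limma adjusted p = 0.786 for both).

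The inducible proteasome subunits replace their constitutive partners in cells that have met interferon and in blood cells. Psmb8 was at 11.13, 11.56, 11.58 and 11.52 in KO and at 11.34, 11.57, 11.52, 11.62 and 11.50 in WT. Psmb9 was at 10.12, 10.83, 10.78 and 10.71 in KO and at 10.70, 11.13, 10.76, 10.63 and 10.71 in WT. Psmb10 was at 13.23, 13.38, 13.35 and 12.97 in KO and at 12.88, 13.30, 13.30, 12.97 and 12.81 in WT. KO replicate 1 was the lowest of all arrays for Psmb8 and Psmb9 but not for Psmb10. Differences were -0.063, -0.18 and 0.18 (limma adjusted p = 0.851, 0.786 and 0.786), and that of Psmb9 was -0.013 without KO replicate 1. Tapbp (tapasin) ran from 9.71 to 10.32 over the 9 arrays, with a difference of 0.15.

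Tap1 and Psmb9 start head to head, 226 bases apart, and the bases between their starts are shown. The part of this stretch in their signals was not tested. The stretch is printed on the strand of Tap1, at chr17:34187331-34187555, with the CCAAT box in capitals.
Psmb9 and Tap1: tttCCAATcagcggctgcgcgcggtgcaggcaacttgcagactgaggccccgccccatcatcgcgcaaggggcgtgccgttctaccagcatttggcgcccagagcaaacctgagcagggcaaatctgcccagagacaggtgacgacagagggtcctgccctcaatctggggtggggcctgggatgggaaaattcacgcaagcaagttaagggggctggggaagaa

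KO replicate 1 was the lowest and WT replicate 2 the highest array for both genes. Pearson's r was 0.89 (exact permutation p = 0.00504, adjusted p = 0.00672 over the 4 relations computed) and Spearman's rho 0.76 (exact permutation p = 0.0207, adjusted p = 0.0276) over 9 arrays. This pair was chosen after its values had been seen. Without KO replicate 1 r was 0.72, without WT replicate 2 it was 0.96, and without both it was 0.15, so the relation rests on those 2 arrays. It was 0.77 within the 5 WT arrays, which include WT replicate 2, and 0.87 with group means subtracted.

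Of the class II chains, H2-Ab1, H2-Aa and H2-Eb1 stood well over the receptor gene background. H2-Ab1 was at 13.11, 13.93, 13.17 and 12.77 in KO and at 12.87, 12.97, 13.45, 13.17 and 14.13 in WT. H2-Aa was at 9.50, 10.96, 9.98 and 9.77 in KO and at 9.51, 9.61, 10.22, 9.98 and 10.64 in WT. H2-Eb1 was at 10.05, 11.61, 10.82 and 10.17 in KO and at 10.08, 10.82, 11.18, 10.95 and 11.69 in WT. KO replicate 2 and WT replicate 5 were the top arrays for all 3 chains, so each group held 1 high array and the ranges overlapped almost entirely. The differences were -0.073 (interval from -0.77 to 0.63) for H2-Ab1, 0.061 (from -0.70 to 0.82) for H2-Aa and -0.28 (from -1.19 to 0.63) for H2-Eb1. None passed the test (limma adjusted p = 0.945, 0.958 and 0.827), and these wide intervals do not show that the groups were alike.

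The other class II chain genes were dim. H2-Eb2 was at 5.76, 5.58, 5.58 and 5.58 in KO and at 5.42, 5.58, 5.58, 5.58 and 5.73 in WT, just over background. H2-Ea-ps was at 4.06, 4.04, 4.04 and 4.04 in KO and at 4.05, 4.04, 4.04, 3.87 and 4.04 in WT, under background in all 9 arrays. RefSeq names it H2-Ea, after the E alpha chain that mice of the H2-b haplotype lack, and lists it as a transcribed pseudogene. H2-Eb1, the gene of the beta partner of E alpha, was well above background in the same arrays. Neither dim gene passed the test (limma adjusted p = 0.830 and 0.805).

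The class II chains H2-Aa, H2-Ab1 and H2-Eb1 rose and fell together from mouse to mouse. No correlation was computed for the dim H2-Eb2 and H2-Ea-ps. H2-Ab1 followed H2-Aa with Pearson's r of 0.91 (exact permutation p = 0.00188, adjusted p = 0.00377) and Spearman's rho of 0.83 (exact permutation p = 0.00731, adjusted p = 0.0146) over 9 arrays. H2-Eb1 followed H2-Aa with r of 0.90 (exact permutation p = 0.000716, adjusted p = 0.00287) and rho of 0.95 (exact permutation p = 0.000419, adjusted p = 0.00168). With group means subtracted r was 0.92 and 0.95, and within the 5 WT arrays 0.97 and 0.93. Without KO replicate 2 and WT replicate 5, the arrays farthest from the median of H2-Aa, r was 0.73 and 0.82 over 7 arrays. KO replicate 3 and WT replicate 4 shared 1 value for H2-Aa (9.98) and 1 for H2-Ab1 (13.17), each the median of the 9 arrays.

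Ciita, the transactivator of these genes, was itself dim, at 5.78, 5.97, 5.90 and 5.72 in KO and at 5.59, 6.11, 5.90, 5.90 and 6.50 in WT. WT replicate 5 was its highest array, as for H2-Ab1 and H2-Eb1. Its r with H2-Aa was 0.58 (exact permutation p = 0.101, adjusted p = 0.101) and rho 0.63 (exact permutation p = 0.0758, adjusted p = 0.0758), and r was 0.33 without KO replicate 2 and WT replicate 5. The KO and WT arrays overlapped, with a difference of -0.16 (limma adjusted p = 0.792) that was -0.033 without WT replicate 5.

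**Figure D2:**
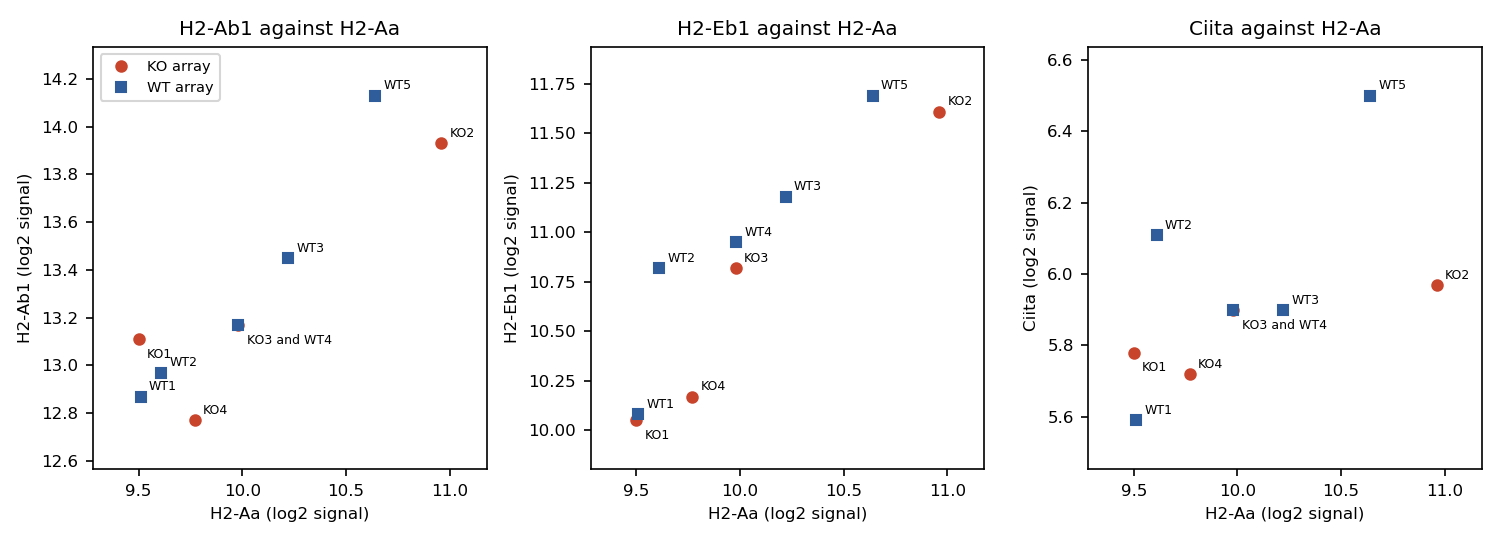
Log2 signals of H2-Ab1, H2-Eb1 and Ciita (vertical axes) against that of H2-Aa (horizontal axes) in 4 KO arrays (circles) and 5 WT arrays (squares), each labelled by group and replicate. KO2 and WT5 lie at the upper right for H2-Ab1 and H2-Eb1 (r = 0.91 and 0.90), with arrays of both groups along the same slope.

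Class II loading genes showed the same high KO array. H2-DMa, the alpha chain of DM, was at 12.94, 13.39, 12.94 and 12.94 in KO and at 12.79, 12.75, 13.08, 12.94 and 13.02 in WT. H2-DMb1, a beta chain of DM, was at 10.14, 11.82, 11.25 and 11.00 in KO and at 10.94, 11.25, 11.25, 11.64 and 11.25 in WT. H2-Oa, the alpha chain of DO, was at 7.54, 9.36, 9.08 and 8.97 in KO and at 8.46, 8.70, 8.70, 8.68 and 7.95 in WT. KO replicate 2 was the highest array for all 3 genes, while WT replicate 5 was not, and KO replicate 1 was the lowest for H2-DMb1 and H2-Oa. Without KO replicate 1 the difference of H2-DMb1 went from -0.21 to 0.091 and that of H2-Oa from 0.24 to 0.64. The H2-Oa difference was 0.032 without KO replicate 2 and 0.10 without WT replicate 5. H2-Ob and H2-DMb2 differed by 0.035 and -0.034, H2-DMa by 0.14 (0.024 without KO replicate 2), and none of the 5 passed the test (limma adjusted p from 0.786 to 0.962).

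H2-Aa, H2-Ab1 and H2-Eb1 had larger SDs over the arrays than H2-K1, H2-D1 and B2m. Over the 9 arrays H2-Aa, H2-Ab1 and H2-Eb1 had SDs of 0.51, 0.47 and 0.62, which lay at the percentiles 92.6, 90.7 and 95.9 of all genes above background. H2-K1, H2-D1 and B2m had SDs of 0.20, 0.23 and 0.20, at the percentiles 49.3, 56.7 and 47.0, against a median of 0.20. Single arrays made up much of these values. Without KO replicate 1 the SDs of H2-K1, H2-D1 and B2m were 0.095, 0.094 and 0.18. Without KO replicate 2 and WT replicate 5 those of H2-Aa, H2-Ab1 and H2-Eb1 were 0.27, 0.23 and 0.47. Tap1 had an SD of 0.51 with KO replicate 1 and of 0.077 without it, and Tap2 had 0.44 and 0.33. The percentiles describe these 9 arrays and were not tested.

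**Figure D3:**
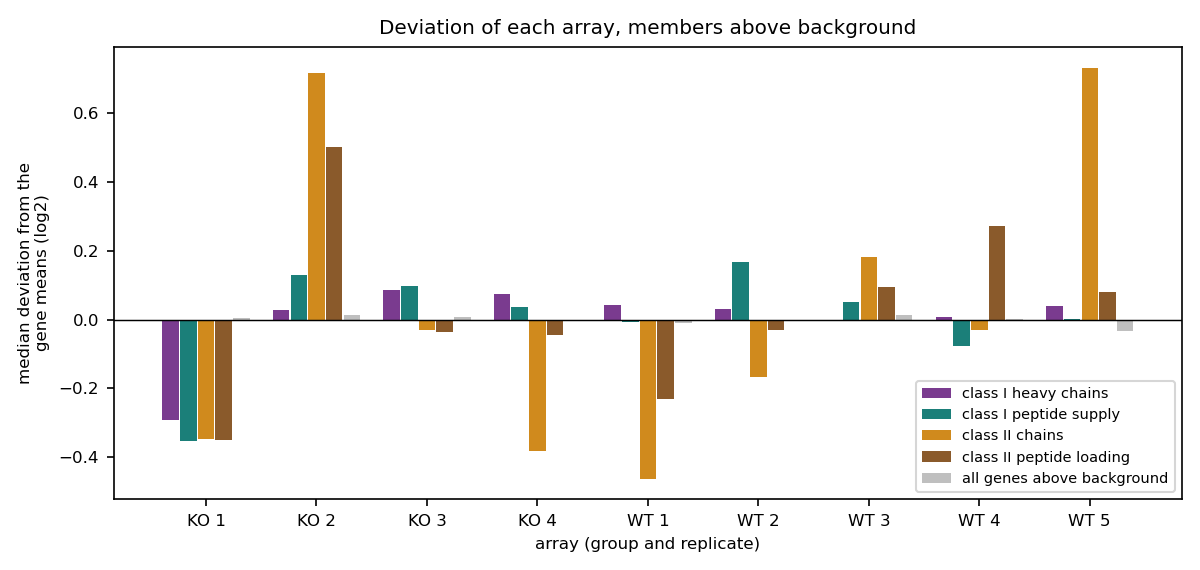
Median deviation from the gene means (vertical axis, log2) of the members above background in 4 groups, and of all genes above background, for each array (horizontal axis). Class II chains stand at 0.72 in KO 2 and 0.73 in WT 5, and all 4 groups stand between -0.29 and -0.35 in KO 1, where all genes stand at 0.0056.

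KO replicate 1 stood apart, with a median correlation of 0.973 with the other arrays across genes above background, against 0.979 in WT replicate 5 and 0.987 to 0.992 in the rest. Its background was 5.64, against 5.29 to 5.37 in the other arrays, and its median over all genes 5.77, against 5.51 to 5.57. It was alone the lowest array for 17 of the 30 members above background (56.7%), against 23.0% of all genes above background, and its Kit signal was 13.82, against 14.39 to 14.78 in the others. The median deviation of the members above background was -0.30 in this array and between -0.021 and 0.10 in the other 8. The part of these array-wide shifts in the members' values was not tested.

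No member differed between KO and WT past the threshold. In limma, 0 of 45 members had an adjusted p under 0.05, where 1 of 30142 genes (0.00332%), Abi1, did. At an unadjusted p under 0.05, 1 member was higher in KO (B2m), against 3.82% of all genes, and 1 was lower (H2-M3), against 1.19%. These shares of the 45 are near those of all genes. In 0 members did all KO arrays lie above all WT arrays, against 0.68% of all genes, and in 0 did they all lie below, against 0.176%. Means were higher in KO for 24 of 45 members, against 64.2% of all genes, and the median difference was 0.013, against 0.034 over all genes. Of the 10 heavy chain genes above background 9 had lower KO means, against 45.5% of all genes above background, with a median difference of -0.047. This count rests on KO replicate 1. Without it 9 of the 10 had higher KO means, with a median of 0.042, and H2-M3 alone was lower.

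**Figure D4:**
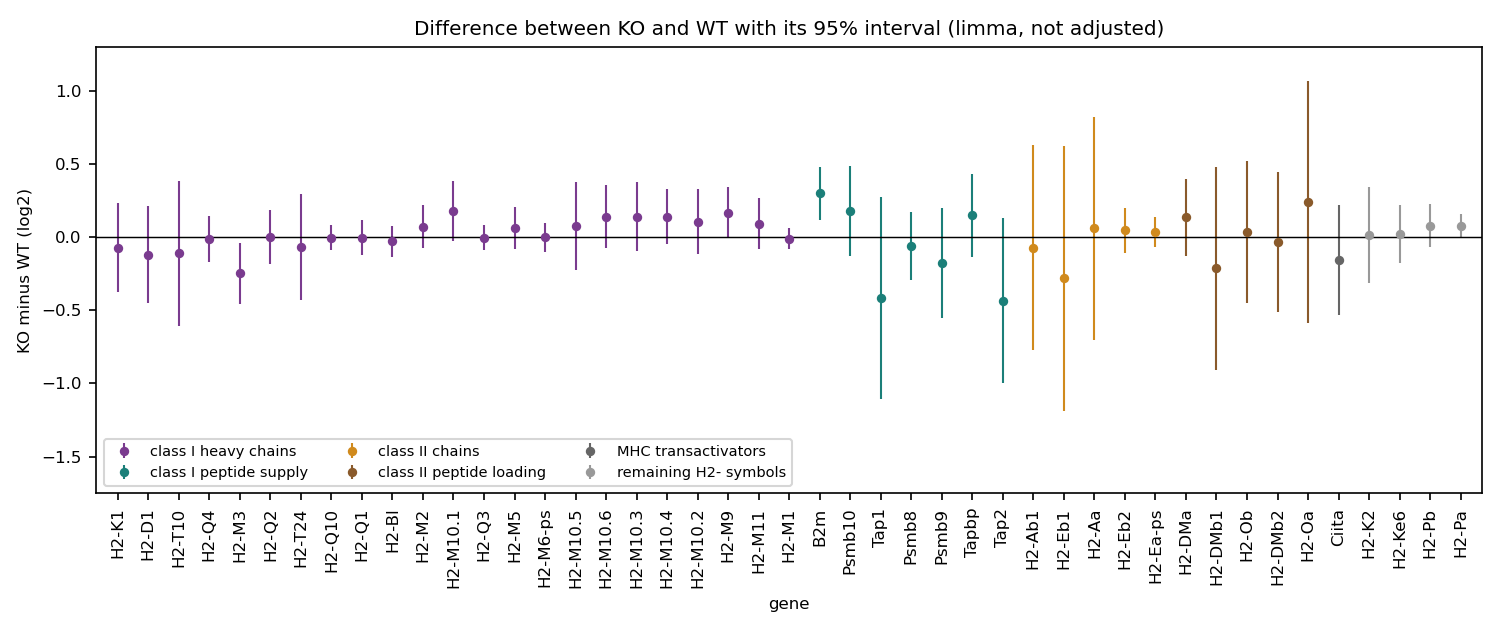
Difference between KO and WT (vertical axis, log2) of the 45 genes (horizontal axis), with bars for limma's 95% interval, not adjusted for the number of genes. The bars of B2m (from 0.12 to 0.48) and H2-M3 (from -0.45 to -0.037) leave out 0, and those of H2-Aa, H2-Ab1 and H2-Eb1 are among the widest.

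The groups were set by gene symbol, and the 4 remaining H2- symbols were kept apart. H2-K2 is therefore not among the 23 heavy chain genes, which do include the pseudogenes H2-T10 and H2-Bl. H2-K2, a class I pseudogene in RefSeq, had a mean of 10.79 and a difference of 0.013. H2-Ke6, an enzyme gene of fatty acid and steroid metabolism that lies within the MHC, was at 10.52, 10.73, 10.51 and 10.42 in KO and at 10.50, 10.62, 10.64, 10.56 and 10.30 in WT. H2-Pb was at 5.59, 5.45, 5.47 and 5.40 in KO and at 5.32, 5.31, 5.57, 5.39 and 5.40 in WT. H2-Pa was at 4.70, 4.68, 4.63 and 4.58 in KO and at 4.58, 4.53, 4.58, 4.58 and 4.58 in WT, under background throughout. All 4 sets of arrays overlapped or met at an equal value, and none passed the test (limma adjusted p from 0.786 to 0.982).

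A list of 42 further antigen presentation genes (chaperones, proteasome activators, endosomal proteases, transcription factors and interferon receptors) had 38 members measured and 35 above background. In limma 0 passed, 1 was higher and 0 were lower before adjustment (p under 0.05), and the list had a median difference of 0.022 against 0.034 over all genes. The higher one was Irf1, an interferon-induced transcription factor of class I genes, at 9.01 in KO and 8.67 in WT (difference 0.34, SE 0.12, limma adjusted p = 0.786). The X box and CCAAT box factors Rfx5, Rfxap, Rfxank, Nfya, Nfyb and Nfyc were all above background, with differences between -0.23 and 0.028. The list of 21 interferon response genes, to which several members respond, had 20 measured, with a median difference of 0.029 and 0 that passed. Before adjustment (limma p under 0.05) 1 was higher in KO, against 3.82% of all genes, and 0 were lower. The higher one was Isg15 (difference 0.33, SE 0.12, limma adjusted p = 0.786).

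Marker genes of other cells that carry class II were read beside these values. Of the 9 measured B cell markers, 6 (Ms4a1, Pax5, Cd22, Fcer2a, Cr2 and Blk) were above background in 0 arrays, and the mean level of the list was 5.41 to 5.53 in KO and 5.28 to 5.53 in WT. Cd79a and Fcrla were above it in 7 arrays each. Cd79b was above it in all 9, at 8.08, 8.62, 8.03 and 8.14 in KO and at 7.83, 7.94, 7.76, 7.71 and 7.57 in WT. Every KO array of Cd79b lay above every WT array, which held for 0.68% of all genes. The difference was 0.46 (unadjusted p = 0.0072 and adjusted p = 0.786 in limma). Of all genes, 3.82% were higher in KO at an unadjusted p under 0.05. For Cd79b, KO replicate 2 was the highest but WT replicate 5 the lowest. Of the 10 dendritic cell markers 6 had means above background, while Zbtb46 and Xcr1 were above it in 0 arrays. The mean level of this list was 6.91 to 7.30 in KO and 6.81 to 7.25 in WT, with KO replicate 2 the highest and WT replicate 5 at 7.13. Itgax (CD11c) was at 7.01 and 6.99 in KO replicate 2 and WT replicate 5, and at 5.88 to 6.85 in the other arrays. Other markers of the list did not follow both arrays. Ccr7 was lowest in WT replicate 5 (7.27), Bst2 was 14.77 in KO replicate 2 and 14.01 in WT replicate 5, and Clec9a was 6.45 and 5.36 there against 6.48 in WT replicate 3. Flt3, which early progenitors also carry, was at 12.78 in WT replicate 5, 12.15 in WT replicate 4 and 11.57 in KO replicate 2, and at 10.81 to 11.22 in the rest.

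Of the 9 monocyte and macrophage markers 7 had means above background, and the mean level was 6.64 to 7.01 in KO and 6.63 to 7.26 in WT. T and NK cell markers had mean levels of 5.02 to 5.23 and 4.94 to 5.14. Neutrophil markers had higher KO means in 10 of 10 genes, against 64.2% of all genes, and 6 of the 10 had means above background. The list level was 7.92 in KO replicate 1 and 7.76 in KO replicate 2. KO replicates 3 and 4 stood at 5.74 and 6.07, and WT arrays at 5.34 to 6.50. Stem and progenitor cell markers had all 11 measured genes above background, at 10.70 to 10.99 in KO and 10.84 to 11.14 in WT. The part of other cells in the class II signals was not tested, and in these bulk samples more cells with a transcript and more transcript per cell cannot be told apart.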

How the data were processed

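RNA of sorted LSK cells (5 ng per mouse, pre-amplified) was hybridised to Affymetrix whole-transcript arrays, per the labels' protocols. The values that the authors deposited for 72688 probesets in 9 arrays were read as log2 signals. Partek 6.6 is named in the submitters' processing notes. How the signals were normalized, and the log base, is not given in the sources used here. Of the members above background, 25 of 30 hold 1 value in at least 2 arrays, which is the median of the 9 arrays in 23, so their spread may be understated.

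Probesets were named from the platform annotation, the brightest of those with 1 symbol standing for a gene. KO and WT were compared over all 30142 genes in R 4.3.3, using lmFit and eBayes of limma 3.58.1 (Benjamini-Hochberg adjustment, threshold 0.05, no covariate), after a check on simulated data. Permutation tests used all 126 splits. The number of arrays limits the precision (median SE 0.125 above background). Values without KO replicate 1, or without KO replicate 2 and WT replicate 5, were added after seeing the data where they stand beside an SD or a count of heavy chains. Replicates are separate mice, and no batch is named. Signals in every array are given for 11 genes set by name and the 3 smallest p per group of members. Of the other pathway genes, up to 4 per direction were to be named. The members, lists and tests were chosen with earlier results of these data known. Whether replicate numbers pair the mice was not settled. Deviations of KO and WT arrays with the same number had correlations of -0.18, 0.15, -0.013 and 0.27, and arrays with different numbers were not compared.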

Additional observations from a re-analysis of the deposited data

Results flagged for a closer look

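Within the 38 groups of arrays examined for the named members above background, 7 held an array whose gap to its nearest neighbour exceeded Dixon's 95% critical value for the group's range, where chance flags about 1 group in 20, and fewer distinct values in a group change that rate. KO replicate 1 was low for 4 class I genes: H2-D1 at 14.13 (other KO arrays 14.74 to 14.84), Tap1 at 11.23 (12.68 to 12.75), Psmb8 at 11.13 (11.52 to 11.58) and Psmb9 at 10.12 (10.71 to 10.83). It was high for the dim H2-Eb2, at 5.76, where the other KO arrays all held 5.58. WT replicate 2 was high for Psmb9, at 11.13 (10.63 to 10.76). KO replicate 2 was high for the class II loading gene H2-DMa, at 13.39, where the other KO arrays all held 12.94.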

How the results depend on the processing

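No member passed the threshold under any of the 17 alternatives run in limma (other normalization, centring, dim genes left out, trend, array weights, mean of probesets, replicate block, arrays left out), and the count of genes was 1 in all but array weights, which gave 2. With the replicate block, which pairs by a shared number only, 0 members and 1 gene passed. Of the 23 members given in every array, 13 kept the sign of their difference and 10 did not, all of them uncalled. Signs turned with array weights for H2-K1 (0.071), H2-D1 (0.027), Psmb8 (0.045), H2-Ab1 (0.011), H2-DMb1 (0.0082) and H2-Ke6 (-0.026). They turned with the block for H2-Ab1 (0.13) and H2-Ke6 (-0.035), and with median centring for H2-Ea-ps (-0.020), H2-Eb2 (-0.010) and H2-Ke6 (-0.036). Without KO replicate 1 and WT replicate 5 together they turned for H2-K1 (0.10), H2-D1 (0.065), Psmb8 (0.041), H2-Ab1 (0.18), H2-Eb1 (0.11), H2-DMb1 (0.087) and H2-Ke6 (-0.027), and H2-Aa went from 0.061 to 0.41. The cause was not tested. With 1 array left out at a time, differences ran from -0.15 to 0.075 for H2-K1, -0.19 to 0.046 for H2-D1, -0.11 to 0.043 for Psmb8, -0.24 to 0.24 for H2-Aa, -0.30 to 0.13 for H2-Ab1, -0.60 to -0.077 for H2-Eb1, -0.47 to 0.091 for H2-DMb1 and -0.041 to 0.063 for H2-Ke6. With background set by the percentile 95 of control probesets marked neg, which lay far higher, 3 class I heavy chains, 1 class II chain, 4 supply genes and 1 loading gene were above it. The relations of H2-Ab1 and H2-Eb1 with H2-Aa stayed past 0.05 with quantile normalization and centring, and without KO replicate 1 and WT replicate 5, chosen after seeing the data, r was 0.96 and 0.86.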
